A study of Mus musculus with 3 samples.

Results

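Nucleosome positions were described at the nuclear genes of the mitochondrial respiratory chain in cultured mouse erythroblasts. The genes were the protein-coding genes on chromosomes 1 to 19 whose symbols begin with Nduf, Uqcr, Sdha, Sdhb, Sdhc, Sdhd, Cox4 to Cox8 or Atp5, which gave 97 of 20556 genes. They comprised 39 complex I subunit genes, 4 complex II subunit genes, 8 complex III genes, 17 complex IV genes and 17 ATP synthase genes. The same name rule also took 8 complex I assembly factors (Ndufaf) and 4 complex II assembly factors (Sdhaf), which are not subunits of the finished enzymes.

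Erythroblasts, the nucleated precursors of red cells, came from the livers of 6 mouse fetuses and were negative for the late erythroid surface marker Ter119 when culture began. All 3 samples had the same medium, IMDM with serum, albumin, insulin and erythropoietin at 2 U/ml, and cells were purified at the start and after 1 and 2 days of culture. Strain and fetal age were not given in the sources used here, and neither was whether the fetuses were pooled. Chromatin was cut with micrococcal nuclease, which digests the DNA between nucleosomes, and the mononucleosome fragments were sequenced. There was 1 library per day, so no difference between days could be tested against a spread between cultures, and differences between days cannot be told apart from differences between libraries.

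The deposited lists held 3735952, 2999502 and 4474045 nucleosome positions on days 0, 1 and 2, each 140 bp wide with a centre, a summit value (its coverage height) and a fuzziness score (the spread of the fragments around the centre). The day 1 list was the shortest, with 1.21 positions per kb of autosome, against 1.50 on day 0 and 1.78 on day 2. Positions measure packaging and not transcripts. Relative occupancy is the summit value summed per bp of a gene's windows, with the mean over the autosomes of that library set to 1. The windows reach 500 bp to either side of each gene end unless said otherwise. At 4 respiratory chain genes, Cox5a, Cox7a2, Atp5d and Atp5g3, the start used below lay more than 1000 bp from the outer gene end. The window at that end did not cover the start of these genes. The gene ends of 9 erythroid marker genes found on the autosomes had median relative occupancies of 2.99, 2.83 and 2.51 on days 0, 1 and 2. The 5 hepatocyte marker genes had 1.56, 1.02 and 1.60, and the 5 macrophage marker genes 1.30, 3.70 and 2.07. These values do not identify cell types, and admixture of other fetal liver cells was not tested.

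The respiratory chain passes electrons from NADH (complex I) and succinate (complex II) through complex III to oxygen at complex IV, and the ATP synthase uses the resulting proton gradient to make ATP. Most of its subunits are encoded in the nucleus, and their promoters are known for binding sites of NRF1, of ETS-family factors such as GABP, of YY1 and of oestrogen-related receptors. Erythroblasts carry mitochondria, which also house steps of haem synthesis, and lose them as red cells mature.

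The DNA before the start site is described first, and 6 promoters are shown because they include starts with and without motifs of these factors and with and without a nucleosome. Each is the 200 bases upstream of the start in GRCm38.p6 (the coordinates of mm10), from RefSeq, read 5′ to 3′ along the gene. Capitals mark an exact match, on either strand, to the NRF1 core GCATGCGC or the ETS/GABP core CCGGAAG. The first is a complex I gene, followed by complexes II, III and IV, the ATP synthase c subunit gene Atp5g2, and the heart and muscle isoform Cox8b, which has no capitals.
Ndufa6 (chr15:82354292-82354491, minus strand): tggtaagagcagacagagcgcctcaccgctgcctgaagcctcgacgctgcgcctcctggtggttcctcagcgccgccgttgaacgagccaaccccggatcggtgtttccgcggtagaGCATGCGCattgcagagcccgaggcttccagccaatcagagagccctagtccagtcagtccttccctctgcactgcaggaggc
Sdhb (chr4:140961071-140961270, plus strand): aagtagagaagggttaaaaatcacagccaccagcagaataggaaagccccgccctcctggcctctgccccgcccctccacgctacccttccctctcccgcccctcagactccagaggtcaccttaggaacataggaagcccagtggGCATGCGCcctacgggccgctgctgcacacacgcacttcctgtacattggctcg
Uqcr11 (chr10:80406822-80407021, minus strand): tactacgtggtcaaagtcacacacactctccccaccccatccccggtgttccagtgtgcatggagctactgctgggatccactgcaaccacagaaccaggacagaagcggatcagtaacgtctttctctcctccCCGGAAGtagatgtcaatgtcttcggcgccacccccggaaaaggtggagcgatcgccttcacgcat
Cox6a1 (chr5:115348959-115349158, minus strand): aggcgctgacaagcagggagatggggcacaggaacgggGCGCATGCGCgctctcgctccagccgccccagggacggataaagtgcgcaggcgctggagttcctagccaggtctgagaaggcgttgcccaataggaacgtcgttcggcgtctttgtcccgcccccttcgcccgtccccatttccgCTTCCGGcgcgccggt
Atp5g2 (chr15:102671048-102671247, minus strand): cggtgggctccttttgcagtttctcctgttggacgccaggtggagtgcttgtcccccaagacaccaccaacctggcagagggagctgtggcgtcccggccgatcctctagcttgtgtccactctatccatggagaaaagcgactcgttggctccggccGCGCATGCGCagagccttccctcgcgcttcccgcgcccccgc
Cox8b (chr7:140900447-140900646, minus strand): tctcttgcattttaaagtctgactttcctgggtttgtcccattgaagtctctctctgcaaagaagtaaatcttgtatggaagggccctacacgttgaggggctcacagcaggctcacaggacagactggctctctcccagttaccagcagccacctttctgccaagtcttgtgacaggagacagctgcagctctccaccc

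Few nucleosome centres lay in the 150 bp before the start of respiratory chain genes on any day. A start with strand was given by RefSeq for 79 of the 97 genes; the 18 others, among them Ndufs1, Cox4i1, Atp5a1 and Uqcrc2, were not used here. The window was empty at 71 of 79 starts on day 0 (89.9%, exact 95% interval 81.0% to 95.5%), at 72 on day 1 (91.1%, 82.6% to 96.4%) and at 61 on day 2 (77.2%, 66.4% to 85.9%). Over all 16456 starts the window was empty at 70.3%, 68.9% and 63.3%. The intervals, which cover counting error only, lay above the all-gene share on all 3 days. With positions of a summit value of 10 or more alone, the shares came close to a ceiling, at 98.7%, 93.7% and 91.1% against 93.0%, 89.98% and 92.8% of all starts, so on day 2 the respiratory chain share was then the lower one.

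Just inside the gene, positions were listed at most of the same starts. The window from 50 to 200 bp downstream was without a centre at 14, 15 and 18 of 79 starts on days 0, 1 and 2, which is 17.7%, 18.99% and 22.8%, against 48.5%, 40.5% and 41.6% of all starts. Over CpG-rich starts of all genes it was 35.9%, 21.1% and 28.6%, so the difference was small on day 1. At mitochondrial ribosomal protein starts it was 44.9%, 31.9% and 39.1%. It was 28.1%, 18.75% and 21.9% at proteasome and 26.7%, 10% and 16.7% at cytosolic ribosomal protein starts. On days 1 and 2 the proteasome and cytosolic ribosomal shares were below those of the respiratory chain. Among respiratory chain starts 62 of 79 (78.5%) were CpG-rich, with an observed-to-expected CpG ratio of at least 0.6 and a GC share of at least 50% in the 300 bp promoter, against 47.0% of all starts. CpG-rich starts of all genes were empty at 72.6%, 65.9% and 62.8%, and the 62 CpG-rich respiratory chain starts at 91.9%, 90.3% and 77.4%.

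**Figure D1:**
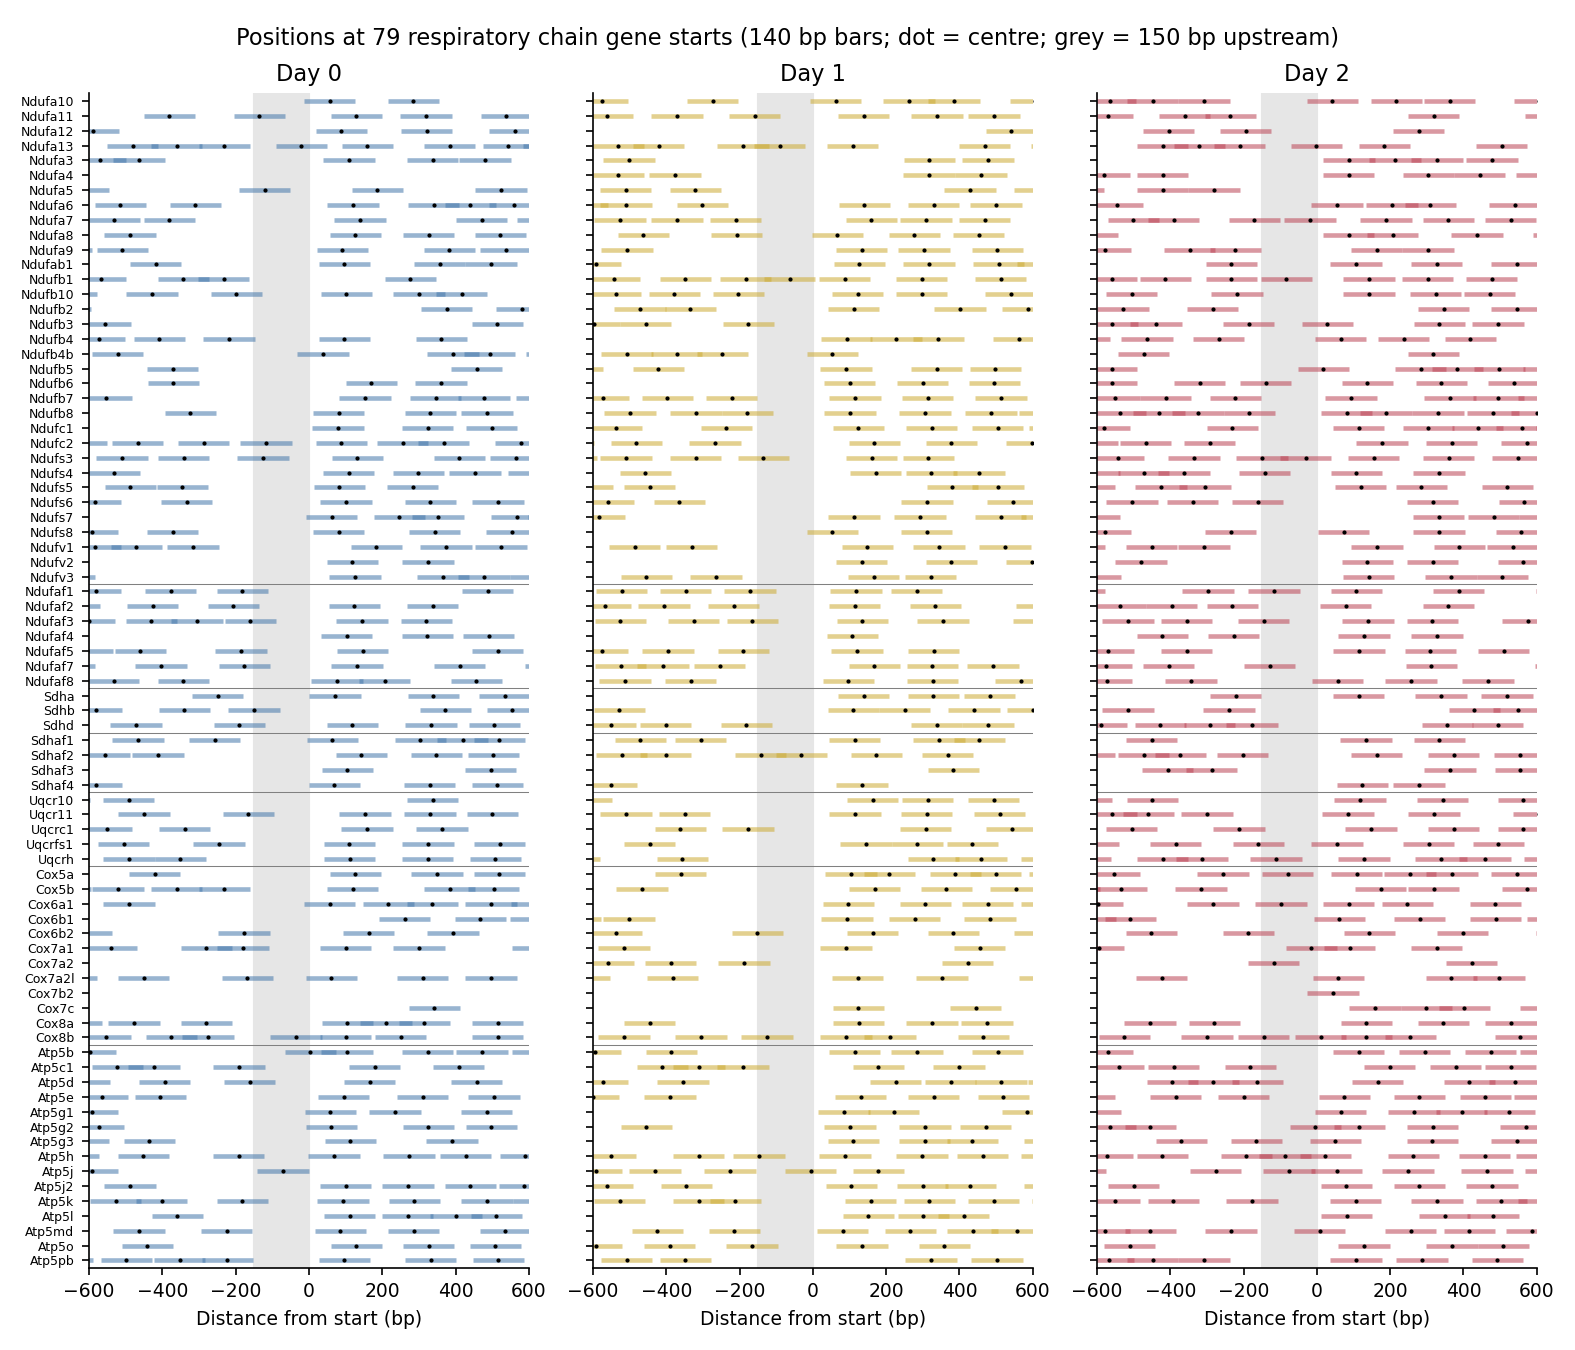
Nucleosome positions at 79 respiratory chain starts. Each row is a gene, grouped by complex and assembly role in the order I, I assembly, II, II assembly, III, IV and ATP synthase; the x axis is the distance from the start in bp with the gene running to the right, bars are the 140 bp positions, dots their centres, and the grey band the 150 bp upstream. The band holds a centre at 8 starts on day 0, 7 on day 1 and 18 on day 2.

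At 56 of 79 starts (70.9%) the window was empty on all 3 days, against 43.9% of all starts and 44.7% of CpG-rich ones. In other groups of widely used genes the share was 62.3% of 69 mitochondrial ribosomal protein starts, 71.9% of 32 proteasome starts and 78.3% of 60 cytosolic ribosomal protein starts, so no difference of the respiratory chain from them is claimed. Within the chain it was empty on all days at 24 of 33 complex I subunit starts, 2 of 3 in complex II, 4 of 5 in complex III, 7 of 12 in complex IV and 12 of 15 in the ATP synthase. Of the assembly factors, 4 of 7 for complex I and 3 of 4 for complex II were empty throughout.

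At 4 of 79 starts a centre was listed in the window on every day, against 1760 of all 16456 starts and 875 of 7734 CpG-rich ones. The 4 were Ndufs3, a core subunit of complex I, Ndufa13 (also known as GRIM-19), the muscle isoform Cox8b and Atp5j, coupling factor 6 of the ATP synthase. Each of these 4 genes has a neighbouring gene within 1000 bp of either end. Ndufs3 and Ndufa13 have a divergent gene start 19 and 164 bp away. Cox8b is not CpG-rich, with a CpG ratio of 0.115. Its first centres inside the gene were at 100, 90 and 10 bp on days 0, 1 and 2.

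The number of filled starts was larger on day 2 than before. The window was filled on day 2 and on neither earlier day at 12 starts: Atp5g2, Cox5a, Cox6a1, Cox7a1, Cox7a2, Ndufa7, Ndufaf1, Ndufaf3, Ndufaf7, Ndufb6, Ndufs4 and Uqcrh. It was filled on day 0 alone at 4 (Ndufa11, Ndufa5, Ndufc2, Sdhb) and on day 1 alone at Sdhaf2. Across all starts 1897 were filled on day 2 alone, 1176 on day 0 alone and 1107 on day 1 alone. The day 2 list was the longest, and its part in these counts was not tested.

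A neighbouring gene lay within 1000 bp of either end at 57 of the 97 genes (58.8%), against 31.3% of all genes, and 23 of 79 starts (29.1%) had a divergent start within 1000 bp, against 12.7%. The 37 starts of genes without such a neighbour were empty at 35, 37 and 32 on days 0, 1 and 2 (94.6%, 100% and 86.5%). The 42 starts of genes with a neighbour were empty at 36, 35 and 29 (85.7%, 83.3% and 69.0%). The difference between these 2 sets was not tested.

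The first nucleosome inside the gene lay at a median of 111, 128.5 and 115.5 bp from the start on days 0, 1 and 2. It fell between 50 and 200 bp at 64, 64 and 60 of 79 starts (81.0%, 81.0% and 75.9%), against 47.5%, 53.6% and 52.9% of all starts and 59.8%, 71.5% and 64.8% of CpG-rich ones. Cytosolic ribosomal protein starts had 71.7%, 88.3% and 76.7%. The gap between the centres on either side of the point 60 bp upstream had a median of 470, 482.5 and 400 bp, against 370, 340 and 318 bp over all starts and 405, 340 and 320 bp over CpG-rich ones. It was 488, 476 and 462 bp at mitochondrial ribosomal, 486.5, 468 and 372.5 bp at proteasome and 471.5, 475 and 442.5 bp at cytosolic ribosomal protein starts. No difference of the respiratory chain from these groups is claimed. At the start of Ndufa6 (a complex I accessory subunit) the first centre lay at 120, 140 and 55 bp. At Uqcr11, a small complex III subunit, it lay at 153, 115 and 85 bp, and at Cox8a, the ubiquitous isoform of the smallest complex IV subunits, at 105, 125 and 135 bp. All 3 windows upstream of these genes were empty on every day.

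The summed profile around the 79 starts showed the same arrangement. From 150 bp upstream to the start its mean was 0.224, 0.268 and 0.392 of the outer flanks on days 0, 1 and 2, against 0.722, 0.868 and 0.810 over all starts and 0.558, 0.836 and 0.706 over CpG-rich starts. The mean was 0.337, 0.295 and 0.366 for mitochondrial ribosomal, 0.366, 0.319 and 0.304 for proteasome and 0.115, 0.154 and 0.214 for cytosolic ribosomal protein starts. The first maximum inside the gene stood at 95, 115 and 115 bp with heights of 2.87, 3.09 and 2.24, against 1.58, 2.34 and 1.69 over all starts. A second maximum followed at 335, 315 and 335 bp. A profile of 79 starts is noisier than one of 16456, and a maximum over a noisier curve tends to stand higher.

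**Figure D2:**
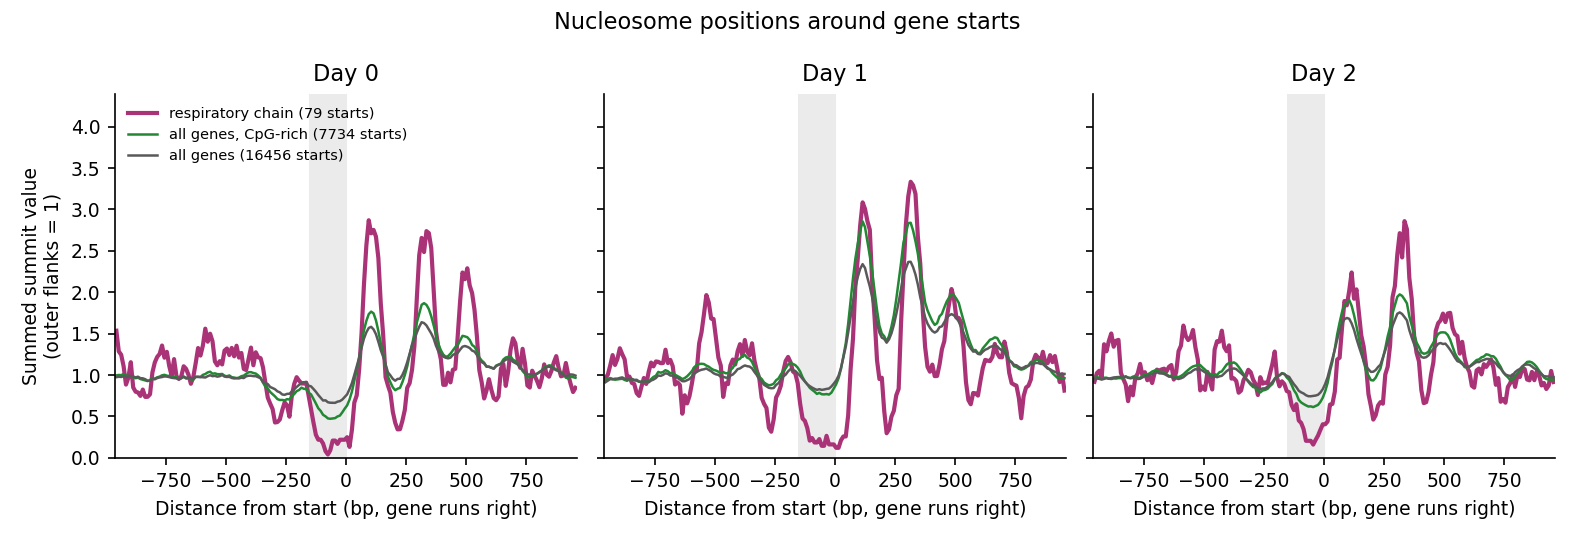
Summed summit values around gene starts on each day, smoothed over 30 bp on each side with the outermost 200 bp of the 2 flanks set to a mean of 1; the x axis is the distance from the start in bp and the grey band the 150 bp upstream. The respiratory chain curve lies below the curves of all genes and of CpG-rich starts in the band on each day, with means of 0.224, 0.268 and 0.392.

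The first centre was compared between days. Where both days had a first centre within 250 bp, it stayed within 20 bp at 23 of 56 starts from day 0 to 1 (41.1%, exact 95% interval 28.1% to 55.0%), at 28 of 59 from day 1 to 2 (47.5%, 34.3% to 60.9%) and at 25 of 57 from day 0 to 2 (43.9%, 30.7% to 57.6%). The shares over all starts were 29.8%, 28.7% and 29.0%. The interval for day 0 to 1 includes the all-gene share. Over CpG-rich starts of all genes the shares were 31.9%, 31.1% and 32.5%, of which the first and the last lie within the intervals. Cytosolic ribosomal protein starts had 40.4%, 39.6% and 35.4%. No shifted background was computed for first centres, and the narrower placement of those of the respiratory chain (81.0% between 50 and 200 bp on day 0) moves with these shares; its part in them was not tested.

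Over the whole genes with 500 bp on each side, sharing differed less. Of the positions at respiratory chain genes, 19.4% of day 0 had a day 1 centre within 20 bp, 22.4% of day 1 had a day 2 centre that close, and 21.5% of day 0 had a day 2 centre that close. After a shift of 1000 bp, taken as a background for chance proximity, the shares were 14.8%, 17.1% and 16.2%. All genes gave 15.3%, 19.4% and 17.1%, with 11.9%, 14.7% and 13.4% after the shift. The ratio to the shifted share was 1.30, 1.31 and 1.32 at the respiratory chain genes and 1.29, 1.32 and 1.28 at all genes, while positions per kb were 2.77, 2.58 and 3.07 against 2.06, 1.73 and 2.27.

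Motifs of the known factors were found at 41 of 79 promoters (51.9%) for NRF1, ETS/GABP or YY1 (AANATGGC), counted in the 250 bp before and 50 bp after the start on both strands. All promoters had a match at 20.4% and CpG-rich ones at 31.7%. The share was 58.0% for mitochondrial ribosomal protein promoters, 50% for proteasome and 63.3% for cytosolic ribosomal protein promoters, and no difference of the respiratory chain from these groups is claimed. NRF1 matched 12 promoters (15.2%, against 3.65% of all and 6.52% of CpG-rich ones), ETS/GABP 21 (26.6%, against 12.3% and 20.3%) and YY1 16 (20.3%, against 6.65% and 8.96%). The ERR motif TCAAGGTCA matched Atp5g3 and Sdhd (2.53%, against 0.340% of all and 0.168% of CpG-rich promoters). TATAAA matched 9 promoters (11.4%, against 13.5% of all and 4.82% of CpG-rich ones). A match is a description of letters and not a binding site.

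The NRF1 matches lay outside nucleosome footprints on days 0 and 1. None of 13 matches was inside a 140 bp footprint on either day, and 2 were on day 2, those of Cox6a1 (162 to 153 bp upstream) and Atp5g2 (42 to 33 bp upstream), both shown above. At Cox6a1, the ubiquitous isoform of subunit VIa, the nearest centre lay 214.5, 254.5 and 59.5 bp from the middle of the match on days 0, 1 and 2. At Atp5g2 the distances were 98.5, 138.5 and 33.5 bp. At Ndufa6 and at Sdhb, the iron-sulphur subunit of complex II, the match stayed outside a footprint on all days, at 199.5, 219.5 and 134.5 bp and at 99.5, 160.5 and 189.5 bp. Over all genes 18.3%, 19.5% and 28.4% of 656 NRF1 matches were covered, and a count of 0 of 13 has an exact upper limit of 24.7%, so a difference on days 0 and 1 was not detectable at this number.

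ETS/GABP matches were covered at 4, 3 and 8 of 25 on days 0, 1 and 2, against 22.4%, 21.1% and 30.8% over all genes. YY1 matches were covered at 9, 3 and 6 of 17, against 29.8%, 25% and 36.2%. The exact interval of each respiratory chain share included the all-gene share, also for YY1 on day 0 (27.8% to 77.0%). Of the 17 YY1 matches, 10 lay inside the gene, as at Atp5b (17 to 24 bp), Ndufs7 (24 to 31 bp) and Ndufs4 (35 to 42 bp). The nearest centre lay 16.5, 93.5 and 93.5 bp from the match at Atp5b on days 0, 1 and 2, 34.5, 84.5 and 304.5 bp at Ndufs7 and 69.5, 132.5 and 69.5 bp at Ndufs4. Over all 5 motifs 22.7%, 10.6% and 28.8% of 66 matches were covered, against 23.3%, 20.4% and 30.6% of matches in all promoters.

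Respiratory chain genes were densely covered by listed positions. The median relative occupancy over the 97 genes was 2.83, 3.75 and 2.62 on days 0, 1 and 2, against 1.95, 2.61 and 1.92 over all genes. At 80 of 97 genes (82.5%) it was above the autosome mean on all 3 days, against 62.9% of all genes. Other widely used genes had shares as high, at 83.3% of mitochondrial ribosomal, 87.2% of proteasome and 95% of cytosolic ribosomal protein genes. The respiratory chain genes are short, with a median length of 7495 bp against 17578.5 bp, and 12384 genes no longer than 25717 bp had medians of 2.13, 2.72 and 1.99.

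By complex, the medians on days 0, 1 and 2 were 2.83, 3.66 and 2.76 for complex I subunits and 3.03, 4.41 and 2.85 for complex II. They were 2.89, 3.02 and 2.89 for complex III, 2.73, 3.75 and 2.02 for complex IV and 3.25, 4.29 and 2.79 for the ATP synthase. Complex I assembly factors had 2.64, 3.20 and 2.57 and complex II assembly factors 2.34, 1.97 and 1.44. Single genes within each complex spread more widely than these medians, as the plot by complex shows.

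**Figure D3:**
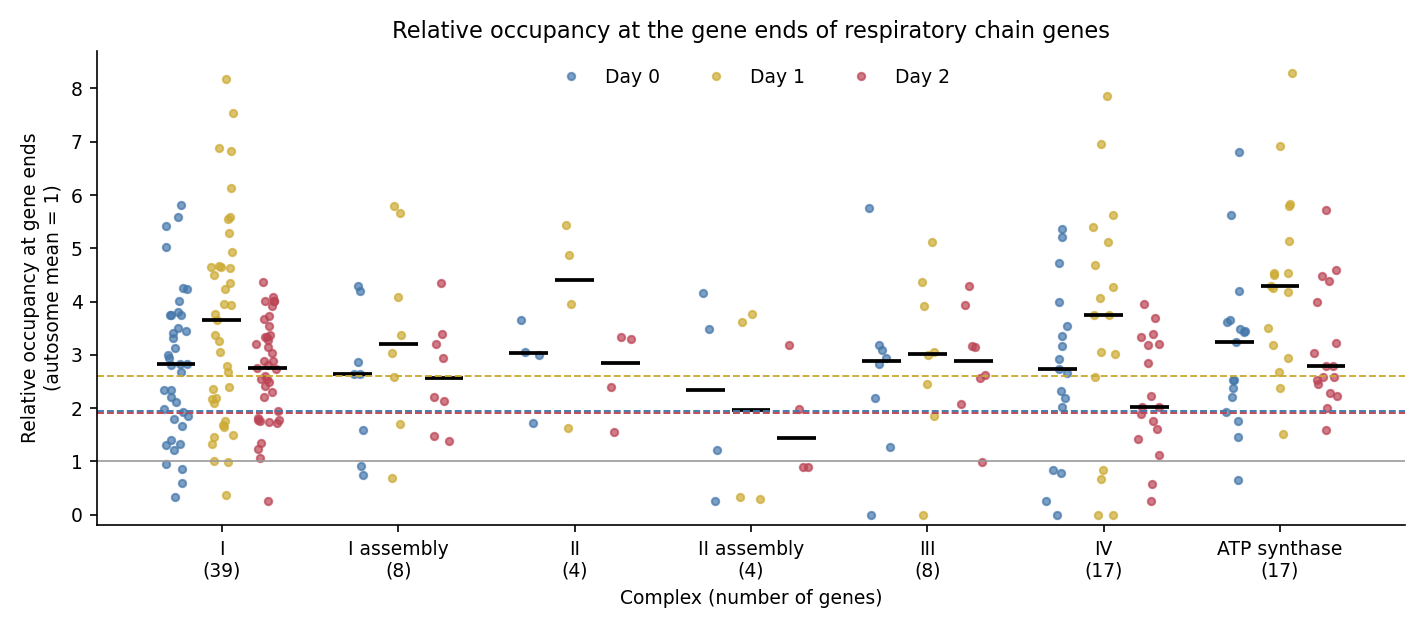
Relative occupancy at the gene ends, with 1 point per gene, day and complex; black bars are medians, dashed lines the medians of all genes in the colour of the day, and the grey line the autosome mean of 1. The complex IV medians are 2.73, 3.75 and 2.02, and genes of complexes III and IV reach 0.

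Among the catalytic and core subunit genes, Ndufv1, which holds the NADH site of complex I, had relative occupancies of 3.75, 6.88 and 3.33. Ndufs1, the largest iron-sulphur subunit, had 2.34, 1.45 and 1.77. Ndufv1 was highest on day 1, whereas Ndufs1 was lowest on that day.

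In complex II the flavin subunit gene Sdha had 1.73, 1.64 and 1.55 and Sdhb 3.06, 5.44 and 3.33. In complex III the core subunit gene Uqcrc1 had 2.83, 3.92 and 3.15 and the Rieske iron-sulphur gene Uqcrfs1 2.18, 2.45 and 2.07. Sdha and Uqcrfs1 varied least among the core genes named so far.

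In complex IV, whose catalytic core is encoded by mitochondrial DNA, Cox4i1 had 5.37, 7.86 and 3.39. Cox5a had 2.02, 4.06 and 1.42 and Cox5b 2.66, 3.74 and 1.60. All 3 were highest on day 1 and lowest on day 2. For the ATP synthase, the α subunit gene Atp5a1 had 3.42, 4.29 and 4.38, and the catalytic β subunit gene Atp5b 3.62, 3.51 and 2.00.

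Isoforms known for other tissues were covered by positions too. Cox6a2, the heart and muscle form, had 2.73, 4.26 and 2.85, beside 5.21, 5.40 and 3.19 for Cox6a1. Cox8b had 3.55, 4.70 and 3.33, beside 4.00, 5.12 and 3.21 for Cox8a. Cox4i2, known from lung, had 4.72, 6.96 and 3.68, close to Cox4i1 on day 2.

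Testis forms were mixed. Cox6b2 had 3.16, 3.01 and 3.96 beside 2.93, 5.62 and 2.23 for Cox6b1, and Cox8c had 2.31, 0.83 and 1.76 from 8, 2 and 7 positions. In the subunit VIIa set, Cox7a1 (heart and muscle) had 3.35, 3.75 and 2.02 and Cox7a2l, a supercomplex assembly factor, 2.18, 3.05 and 1.89. The liver-type gene Cox7a2 had 0.78, 0 and 0.26 at its ends from 3, 0 and 1 positions. Its start lay 11569 bp from the outer gene end, with 0, 3 and 2 positions within 500 bp of the start. Over its span Cox7a2 had 1.29, 1.40 and 1.40.

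The c subunit of the ATP synthase rotor is made from 3 genes. Atp5g1 had 2.53, 4.54 and 3.22, Atp5g2 1.76, 3.19 and 3.04 and Atp5g3 1.47, 1.52 and 2.28. Ndufa4, named for complex I and later placed in complex IV, had 0.33, 1.00 and 1.78 from 1, 3 and 5 positions, and its hypoxia-induced relative Ndufa4l2 2.99, 6.13 and 4.08.

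**Figure D4:**
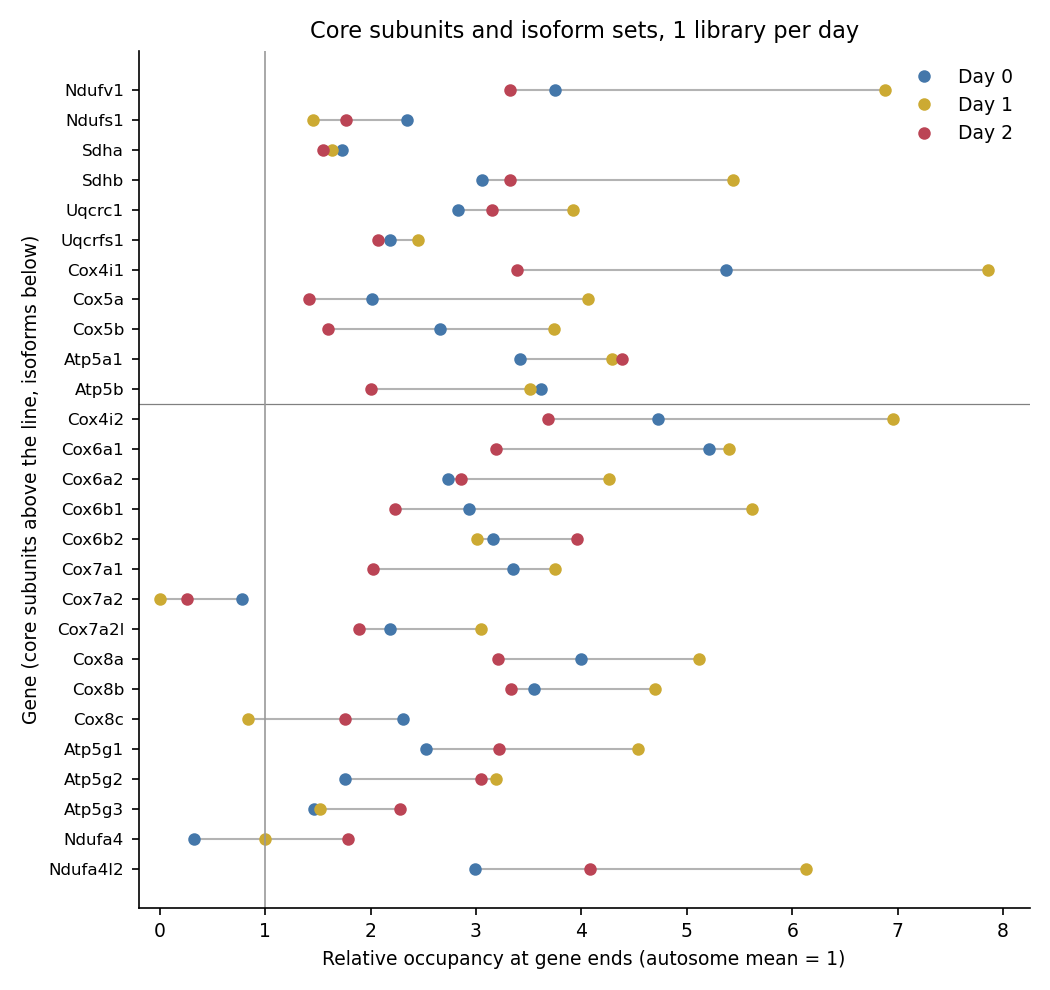
Relative occupancy at the gene ends of 11 core subunit genes (above the line) and the isoform sets (below), with 1 dot per library and grey bars joining the lowest and highest day. The vertical line is the autosome mean of 1, and Cox7a2 and Ndufa4 on day 0 lie below it at 0.78 and 0.33.

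At 3 genes no position lay at the ends on at least 1 day. Per day the share was 2.06%, 3.09% and 0% on days 0, 1 and 2, against 9.38%, 10.9% and 3.51% of all genes. Cox7b2, a testis form, had 0, 0 and 2 positions, Uqcrb of complex III 0, 0 and 3 and Cox7a2 3, 0 and 1. Over its span Cox7b2 had relative occupancies of 0.13, 0.11 and 0.34, and Uqcrb had 0.19, 0.27 and 0.77. Genes with processed copies or near-identical sequences elsewhere can lose or gain reads in mapping, and how the authors treated reads with several matches was not given in the sources used here.

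Between days the respiratory chain genes had median changes close to those of all genes. At the ends 83 of 97 genes had at least 3 positions on each day, as had 13992 of all genes. For the steps day 0 to 1 and day 1 to 2, and for day 0 against day 2, the 83 genes had median log2 changes of 0.37, -0.49 and -0.13, against 0.45, -0.56 and -0.12 over all genes. Occupancy was highest on day 1 at 58 of 83 genes (69.9%), against 70.4% of all genes.

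Changes of at least 2-fold were few. Of the 83 genes, 7 were higher by this rule on day 1 than on day 0 and 0 lower, where 16.2% and 1.31% of all genes were. From day 1 to 2, 0 were higher and 9 lower, against a background of 0.593% and 19.7%. From day 0 to 2, 6 were higher and 4 lower, against 4.24% and 6.53%. Measured relative to the change of the median gene, 2 were higher and 2 lower from day 0 to 1 (background 4.79% and 5.42%). On that scale 6 were higher and 2 lower from day 1 to 2 (4.62% and 3.33%), and 8 higher and 2 lower from day 0 to 2 (5.89% and 4.67%).

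The largest increases from day 0 to 2 were at genes with 3 or 4 positions on day 0. Ndufs4, an accessory subunit of the NADH-oxidising part of complex I, had 0.94, 1.65 and 2.41 from 3, 4 and 7 positions, a log2 change of 1.35. Ndufb3 had 1.34, 1.69 and 3.28 (1.30) and Cox6c 0.85, 2.59 and 2.02 (1.25). Ndufb2 had 1.40, 2.19 and 3.04 (1.12) and Uqcrc2, the other core protein of complex III, 1.27, 1.85 and 2.62 (1.05). Cox6c was highest on day 1, and the other 4 were highest on day 2.

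The largest decreases were at genes with 4 to 12 positions on day 0. Ndufa11 had 3.75, 5.60 and 1.72 from 8, 11 and 5 positions, a log2 change of -1.13. Atp5o, which encodes the subunit OSCP that joins the catalytic head of the ATP synthase to its stalk, had 3.45, 5.84 and 1.59 (-1.12). Both were highest on day 1.

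Sdhaf1, an assembly factor for the iron-sulphur subunit of complex II, had 4.16, 3.62 and 1.99 (-1.07). Ndufb4b, a copy of Ndufb4, had 2.22, 1.75 and 1.07 (-1.05), and Uqcr11 5.76, 5.12 and 3.17 (-0.86). These 3 were lower on each later day. Scaled to the list totals, the ratio of position numbers from day 0 to 2 had an exact 95% interval that included 1 at all 10 genes past 2-fold, so none of these changes exceeded counting error in the number of positions. At Ndufs4 the ratio was 1.97 (interval 0.448 to 11.8) and at Atp5o 0.468 (0.123 to 1.55). With windows of 1000 bp the log2 changes were 0.56 at Ndufs4, 0.73 at Ndufb3, 0.63 at Cox6c, 0.36 at Ndufb1, 0.29 at Ndufb2 and 0.23 at Uqcrc2, and -0.52 at Ndufa11, -0.53 at Atp5o and -0.26 at Ndufb4b, all within 2-fold. Sdhaf1 stayed past 2-fold with these windows (-1.19), but had -0.10 with windows of 250 bp and -0.24 at summit values of 10 or more.

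In the single steps, the largest increases from day 0 to 1 were at Cox6c (log2 change 1.61) and Ndufa10 (1.53), and the largest decreases at Ndufs5 (-0.93) and Ndufs1 (-0.69). From day 1 to 2 they were at Ndufb3 (0.96) and Atp5g3 (0.58), and at Atp5o (-1.87) and Ndufa11 (-1.70). The 9 genes past 2-fold lower from day 1 to 2 included 4 of the 13 complex IV genes measured, namely Cox4i1, Cox5a, Cox5b and Cox6b1, where 19.7% of all genes were. At the ends, complex IV genes were highest on day 1 at 12 of 13, against 70.4% of all genes. Their median log2 change from day 0 to 2 was -0.36, against 0.14 for the ATP synthase, 0.15 for complex III and -0.15 for complex I subunits. Over the whole gene, complex IV did not stand apart. Day 1 was highest there at 80%, against 78.4% for complex I subunits, 76.5% for the ATP synthase and 71.4% for complex III. The whole-gene medians from day 0 to 2 were -0.03 for complex IV, -0.04 for complex I subunits, -0.003 for the ATP synthase and -0.29 for complex III.

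**Figure D5:**
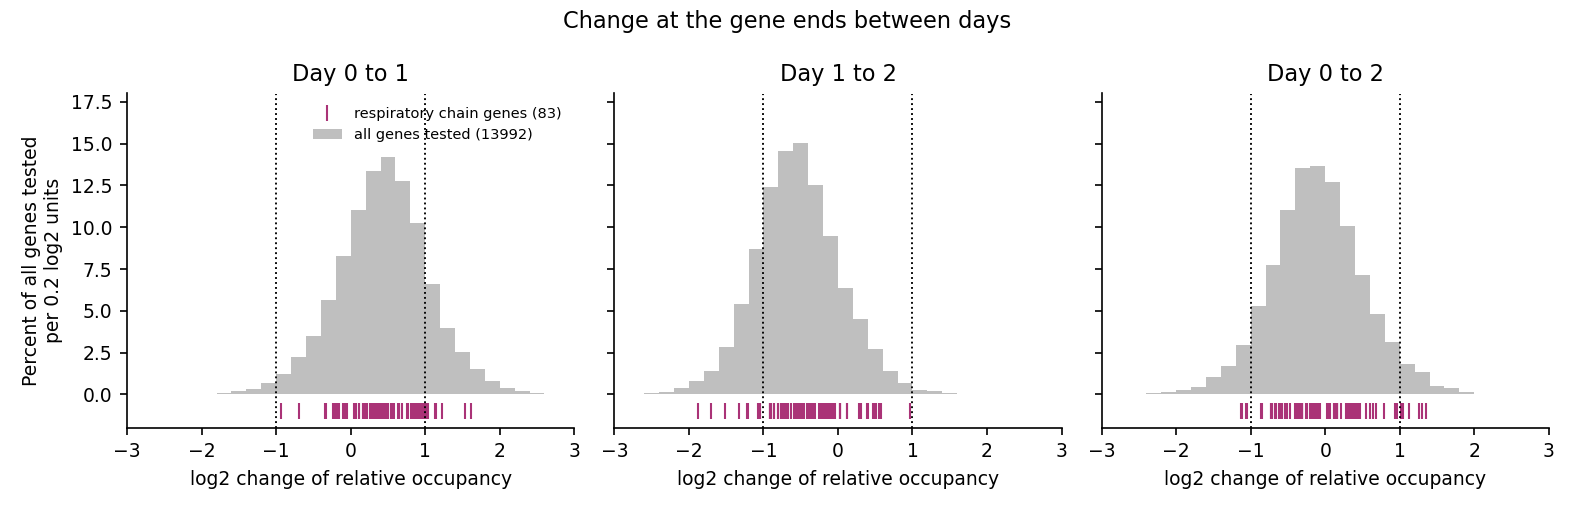
Log2 change of relative occupancy at the gene ends between days. Grey bars give the percent of 13992 genes per 0.2 log2 units, purple ticks the 83 respiratory chain genes and dotted lines the 2-fold limits; the ticks lie within the range of the bars, with medians of 0.37, -0.49 and -0.13.

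Over the whole gene from start to end, 92 of 97 genes and 17894 of all genes were measured. The median occupancies over all 97 genes were 2.72, 3.56 and 2.52 on days 0, 1 and 2, against 1.97, 2.14 and 1.78 over all 20556. Of the 97, 85 (87.6%) were above the autosome mean on all days, against 65.5%. Among the measured genes the median log2 change was 0.33, -0.50 and -0.06 for day 0 to 1, 1 to 2 and 0 to 2, against 0.20, -0.33 and -0.15. The short genes defined above had 0.32, -0.51 and -0.21. Day 1 was highest at 67 of 92 genes (72.8%), against 56.1% of all genes, 72.7% of mitochondrial ribosomal, 82.1% of proteasome and 84.2% of cytosolic ribosomal protein genes.

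By the 2-fold rule 6 genes were higher and 1 lower over the span from day 0 to 1, against a background of 3.45% and 5.68%. From day 1 to 2, 1 was higher and 4 lower (7.57% and 4.05%), and from day 0 to 2, 4 were higher and 0 lower (5.38% and 2.37%). Relative to the median gene the counts were 4 higher and 1 lower (1.92% and 8.38%), 5 and 0 (12% and 0.894%), and 4 and 0 (7.09% and 1.4%). The 4 genes past 2-fold from day 0 to 2 were Ndufa4 (0.59, 1.02 and 1.91, log2 change 1.69), Cox7b2 (1.39), the accessory complex I gene Ndufa3 (1.32, 3.93 and 2.80, log2 change 1.08) and Atp5j (1.04, 2.44 and 2.18, log2 change 1.06). Ndufa4 had 7, 10 and 22 positions in its span, a scaled ratio of 2.65 from day 0 to 2 with an exact interval of 1.09 to 7.33. Cox7b2 had 25, 17 and 74 positions, a ratio of 2.49 with an interval of 1.57 to 4.09. The intervals of Ndufa3 and Atp5j included 1. These 4 genes were picked for the size of their change, and the intervals were not adjusted for that choice. The share of all genes with an interval excluding 1 is not given here. The intervals of Ndufa4 and Cox7b2 therefore do not establish a change at these genes. Cox7c, outside the rule for its 1 position in the span on day 0, had 1, 4 and 8 positions and was chosen after its values were seen.

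Other genes of the pathway, among them cytochrome c, assembly factors of complexes III and IV, and factors for mitochondrial DNA and for these promoters, gave 32 genes. At the ends 28 were measured, of which 4 were higher and 1 lower from day 0 to 1 (background 16.2% and 1.31%), 2 higher and 6 lower from day 1 to 2 (0.593% and 19.7%) and 2 higher and 2 lower from day 0 to 2 (4.24% and 6.53%). The median relative occupancies over all 32 were 2.70, 3.63 and 2.40. Cycs, the cytochrome c gene, had 2.70, 2.63 and 2.76, and Cyc1, the cytochrome c1 subunit of complex III, 5.23, 7.66 and 3.34. Nrf1 had 3.70, 6.09 and 3.71, and Tfam, which packages mitochondrial DNA, 1.41, 2.14 and 0.39 from 4, 4 and 2 positions.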

How the data were processed

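Mononucleosome DNA from 3 libraries, 1 per culture day, was analysed. Reads were mapped to mm10 with Bowtie2, and bedtools was used, per the submitters' processing notes. The position caller, the versions and the filters were not given in the sources used here, and the labels' protocol speaks of RNA libraries although the molecule is genomic DNA. The authors deposited lists of 140 bp positions with a summit value, a coverage signal whose scaling between libraries was not given, a fuzziness score, and p-values for both. The deposited p-values were not used. Summed summit values were therefore expressed relative to the autosomes of their own library.

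Genes came from a RefSeq table of GRCm38.p6, leaving out 105 genes below 3000000 bp of a chromosome, and starts from a RefSeq promoter table, taking for each gene the start nearest its outer end. Neither gives exons, so positions were not split into exons and introns. Windows reached 500 bp to either side of a gene end. A change was counted at 2-fold with at least 3 positions on each day, a size rule and not a test. Shares have exact Clopper-Pearson 95% intervals, and ratios of position numbers exact conditional binomial ones. These cover counting error only, and no interval measures the spread between cultures.

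The members and the gene lists were chosen with earlier results of these data known. Named genes were 11 core subunits (1 further core subunit of the rule is not reported here), the isoform sets, the 5 largest gene-end changes in each direction from day 0 to 2, the 2 largest in each direction for each step, and genes without a position at their ends on a day. Genes named for a start, a motif, a whole-gene change or in the wider pathway were added after their values were seen. The comparison with CpG-rich starts, the window inside the gene, the change relative to the median gene and the set of short genes were also added then. Scripts were tested on simulated data. Python 3.11.15, numpy 2.4.6, pandas 2.3.3, scipy 1.17.1 and matplotlib 3.10.9 were used.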

Additional observations from a re-analysis of the deposited data

How the results depend on the processing

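No paired analysis was possible because there was 1 library per day and no test. Of 123 alternative values for the main results, 68 stayed within 1.5 times the count, 0.1 log2 units of the median or the exact interval of the share, and 55 did not. Counts past 2-fold were compared as raw counts, also where fewer genes were measured. By this rule 6 of 21 genes at summit values of 10 or more stayed with 7 of 83. For these counts the tally therefore does not measure how stable the shares were. No gene past 2-fold from day 0 to 2 turned its sign under an alternative that gave a value. Of the 123 values, shared positions moved in 9 of 9, empty starts in 7 of 9, covered motifs in 2 of 3, counts past 2-fold in 36 of 78 and the median change in 1 of 24.

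At the gene ends, the counts higher and lower from day 0 to 1, 1 to 2 and 0 to 2 became as follows where they moved. Brackets give the share of all genes measured the same way. With windows of 1000 bp, 92 genes were measured and 1 was lower from day 0 to 1 (2.88%). From day 1 to 2, 2 were higher and 4 lower (1.87% and 10.6%), and from day 0 to 2, 1 was lower (4.7%). The median of the members minus that of all genes became 0.10 from day 0 to 2. With windows of 250 bp, 47 genes were measured and 4 were higher from day 0 to 1 (16.8%). From day 0 to 2, 1 was higher and 1 lower (2.18% and 7.36%). With at least 5 positions, 1 of 66 was higher from day 0 to 2 (0.869%). With summit values of 10 or more, 21 genes were measured, and 3 were lower from day 1 to 2 (14.9%) and 0 from day 0 to 2 (1.38%). At this setting 6 were higher from day 0 to 1 (30.2%) and 5 from day 0 to 2 (13.8%). These 2 counts did not move by the rule, but fewer genes were measured. With each position counted once, 2 of 83 were higher from day 0 to 1 (8.23%). From day 0 to 2, 2 were higher and 2 lower (1.42% and 4.77%). Scaled to the median gene, 2 of 83 were higher and 2 lower from day 0 to 1 (4.97% and 5.19%). From day 1 to 2, 6 were higher and 2 lower (4.57% and 3.37%), and from day 0 to 2, 2 were lower (4.67%). Without a neighbour within 1000 bp, 33 genes were measured and 2 were higher from day 0 to 1 (16.7%). From day 1 to 2, 5 were lower (19.9%), and from day 0 to 2, 2 were higher and 2 lower (4.77% and 7.36%).

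Over the whole gene, summit values of 10 or more gave 10 higher and 2 lower, 3 higher and 12 lower, and 7 higher and 4 lower of 50 measured genes in the 3 comparisons, against 14.3% and 12%, 10% and 11.2%, and 12.5% and 11.1% of all genes. Counting each position once gave, of 92 genes, 2 higher and 0 lower from day 0 to 1 (all genes 2.07% and 4.5%). It gave 1 lower from day 1 to 2 (1.94%), and 2 higher and 1 lower from day 0 to 2 (4.25% and 1.45%). Scaling to the median gene gave 5 of 92 higher and 0 lower from day 1 to 2 (12.3% and 0.816%). Of the 80 subunit genes measured, 0 were lower from day 0 to 1 (5.68%).

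Shared positions were 11.6%, 12.8% and 12.7% within 10 bp, 34.5%, 39.9% and 37.5% within 40 bp, and 11.8%, 10.0% and 9.65% at summit values of 10 or more. Wider distances raise such shares and shorter lists can lower them. The ratios to the shifted share were 1.41, 1.32 and 1.47, then 1.21, 1.22 and 1.18, and 1.53, 1.58 and 1.85. In the main setting they were 1.30, 1.31 and 1.32. Shares over all genes were not computed at these alternative settings. Starts of genes without a neighbour were empty at 35, 37 and 32 of 37, against 71.6%, 69.9% and 64.5% of all such starts. With 100 bp footprints 7.58% of motif matches were covered on day 0 and 16.7% on day 2, against 15.6% and 20.9% in all promoters. With a window from 200 bp upstream to 50 bp downstream, 55, 60 and 45 of 79 starts were empty (69.6%, 75.9% and 57.0%), against 53.3%, 53.2% and 43.1% of all. At summit values of 10 or more 78, 74 and 72 were empty; a shorter list can only raise this count.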
